A study of Mus musculus with 6 samples.

Results

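The microRNA genes of the imprinted Dlk1-Dio3 locus on mouse chromosome 12 were examined in tissue labelled as hippocampus from mice given ethanol or saline as newborns. A list of 44 microRNA genes was used, and a gene entered when a row of the array was annotated to it alone; where it had several such rows, the one with the highest mean over all 6 arrays was taken. This gave 31 genes, among 22180 genes with a row of their own and 41345 rows in all. Of the other 13 listed genes, 11 (Mir127, Mir134, Mir136, Mir369, Mir410, Mir412, Mir431, Mir433, Mir434, Mir485 and Mir770) shared rows with other genes and have no value of their own here. The remaining 2, Mir299 and Mir496, are annotated under the current symbols Mir299a and Mir496a and are described separately. The rule uses no difference between ethanol and saline.

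The Dlk1-Dio3 locus carries one of the largest microRNA clusters of mammals. On the maternal chromosome it produces long noncoding RNAs, Meg3, Rian and Mirg, and the microRNAs, whereas the protein-coding genes Dlk1, Rtl1 and Dio3 are expressed from the paternal chromosome. MicroRNA hairpins are cut out of the long transcripts in the nucleus, exported and cut again to mature strands, which recognise messenger RNAs through the seed, bases 2 to 8 of the strand. In neurons the part of the cluster from Mir379 to Mir410 is known to be induced by the activity-dependent factor Mef2, and several of its microRNAs act on dendrite growth.

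The ethanol group was made up of C57BL/6J pups that received subcutaneous ethanol, 2.5 g/kg dissolved in 0.15 M NaCl, on postnatal days 4 and 7, with 2 injections a day that were 2 hours apart. The control group received saline on the same schedule and came from the same litters. There were 3 arrays per group, each with RNA pooled from 3 mice, all male and 18 in number per the protocol. The labels give the age in conflict, as 21 days in the sample characteristics and the design text and as day 70 in the treatment protocol. No transgene or mutation was involved.

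The values were log2 expression values, and array medians lay between 6.55 and 6.66. Across rows, Pearson correlations were 0.991 to 0.992 within ethanol and 0.987 to 0.988 within saline. Between groups they were 0.987 to 0.992, and the highest of these involved saline array 1, which matched its own group less closely (0.987). Against the labelled tissue, 4 of the 7 measured genes of a telencephalic list (Neurod6, Emx1, Emx2 and Tbr1) had means of 6.76, 6.39, 5.28 and 5.74, below the 7.10 of the median gene, while Neurod2, Camk2a and Slc17a7 stood at 10.58, 9.76 and 10.95. Lists of dentate gyrus (7 of 7 measured) and CA1 genes (5 of 6 measured) had medians of 6.71 and 6.89, also below the median gene, and a list for CA3 and CA2 (7 of 8 measured) had one of 7.72. Above the median gene were Prox1, Rfx3 and Stxbp6 of the dentate list (8.18, 8.39 and 7.68) and Wfs1 and Fibcd1 of the CA1 list (8.72 and 7.26). A list of cerebellar neuron genes (10 of 12 measured) had a median of 11.52, with array medians of 11.54 to 11.58 in ethanol and 11.43 to 11.55 in saline. Its defining genes Gabra6 and Cbln3 stood at 12.17 and 12.11, and its lowest, Barhl1 and Neurod1, at 7.45 and 8.12. The part of such tissue in the results below was not tested, and the tissue is named here only as labelled.

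The 31 genes lie between position 109571990 and position 109743236 of chromosome 12 on build GRCm38, a span of 171 kb. The first 5 (Mir673, Mir493, Mir337, Mir540 and Mir665) fall within the RefSeq span of Rtl1, Mir370 within that of Rian, and the last 4 (Mir154, Mir377, Mir541 and Mir409) within that of Mirg. The other 21 lie between Rian and Mirg. RefSeq listed 59 mature strands for the 31 genes, with 57 distinct seeds. Only 2 seeds were shared between genes, one by Mir379 and Mir411 and one by Mir376b and Mir376c. Mature strands are given here from RefSeq, 5′ to 3′, with the seed in capitals, for the genes with the largest differences in either direction.
mmu-miR-329-3p, chr12:109713541-109713562, plus strand: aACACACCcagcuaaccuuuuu
mmu-miR-300-3p, chr12:109724363-109724384, plus strand: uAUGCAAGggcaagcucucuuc
mmu-miR-381-3p, chr12:109726870-109726891, plus strand: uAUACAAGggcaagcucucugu
mmu-miR-382-5p, chr12:109733781-109733802, plus strand: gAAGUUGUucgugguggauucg
mmu-miR-154-3p, chr12:109738474-109738495, plus strand: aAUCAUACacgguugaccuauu
mmu-miR-541-5p, chr12:109742422-109742446, plus strand: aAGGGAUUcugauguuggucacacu
The seeds of mmu-miR-300-3p and mmu-miR-381-3p differ at 1 base, G4A, counted from the 5′ end with the base of mmu-miR-300-3p first.

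A further set is shown because it holds the shared seeds and the genes with the lowest signal.
mmu-miR-379-3p, chr12:109709102-109709123, plus strand: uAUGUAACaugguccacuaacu
mmu-miR-411-3p, chr12:109710225-109710246, plus strand: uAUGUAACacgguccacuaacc
mmu-miR-376c-5p, chr12:109722733-109722754, plus strand: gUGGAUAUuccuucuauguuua
mmu-miR-376b-5p, chr12:109723471-109723492, plus strand: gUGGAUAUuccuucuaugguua
mmu-miR-376b-3p, chr12:109723508-109723528, plus strand: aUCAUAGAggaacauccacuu
mmu-miR-376a-3p, chr12:109723824-109723844, plus strand: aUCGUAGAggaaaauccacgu
The 3p seeds of Mir376b and Mir376a differ by A4G, with the base of mmu-miR-376b-3p first. The other strands of Mir379 and Mir411, which both begin with a closely related seed, differ within it by G2A, with the base of mmu-miR-379-5p first.

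Neonatal ethanol was compared with saline to ask whether early exposure left a difference in these microRNA genes. Most differences were small, and none passed the test. By limma, 0 of the 31 genes were called at an adjusted p under 0.05, as were 0 of all 41345 rows (0%), where the smallest adjusted p was 0.857. At an unadjusted p under 0.05 there were 2 of the 31 genes, Mir329 lower and Mir382 higher in ethanol, or 6.45%, against 5.54% of all rows (2290 rows, with 1.97% higher and 3.57% lower). Taken at 1 row per gene, as the 31 were, the share was 3.18% (705 of 22180 genes). The differences (log2, ethanol minus saline) ran between -0.39 for Mir300 and 0.31 for Mir154; 14 of the 31 were within 0.1 of 0 and 5 were beyond 0.3. RNA came from whole tissue, so that fewer cells of a type and less RNA per cell cannot be told apart.

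**Figure D1:**
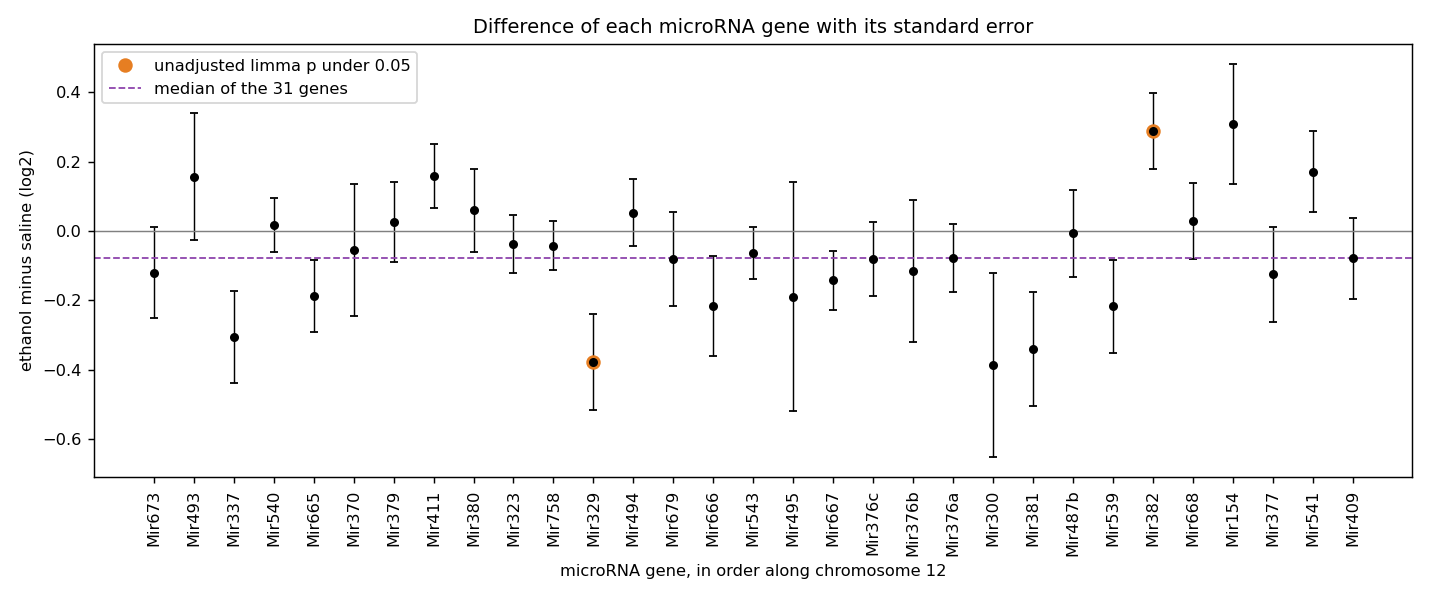
Difference between ethanol and saline arrays (log2, vertical axis) for each of the 31 microRNA genes, in order along chromosome 12, with bars of 1 standard error from the limma fit. The 2 orange points are Mir329 at -0.38 and Mir382 at 0.29, and the dashed line is the median of the 31 genes, -0.08.

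Mir329 had values of 8.66, 8.60 and 9.05 in ethanol arrays 1 to 3, against 9.01, 9.26 and 9.18 in saline arrays 1 to 3. Ethanol arrays 1 and 2 lay below every saline array, while ethanol array 3 lay above saline array 1, so the groups overlapped. The mean was 8.77 ± 0.24 in ethanol, against 9.15 ± 0.13 in saline (SD, n = 3 each), a difference of -0.38 ± 0.14 (SE; adjusted p = 0.857 in limma). This microRNA is among those of the cluster reported to be needed for activity-dependent dendrite growth in rodent neurons. Leaving out single arrays moved the difference between -0.29 (without ethanol array 2) and -0.52 (without ethanol array 3).

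Mir382 stood at 6.59, 6.73 and 6.88 in ethanol arrays 1 to 3, against 6.30, 6.46 and 6.57 in saline arrays 1 to 3. Every ethanol array lay above every saline array, with ethanol array 1 close to saline array 3. The mean was 6.73 ± 0.15 in ethanol, against 6.44 ± 0.13 in saline (SD, n = 3 each), and the difference was 0.29 ± 0.11 (SE; adjusted p = 0.857 in limma). Without ethanol array 3 the difference was 0.21, and without ethanol array 1 it was 0.36. The only other gene of the 31 whose groups did not overlap was Mir411, singled out after its values were seen, at 3.50, 3.29 and 3.23 in ethanol and 3.21, 3.15 and 3.18 in saline. These 2 genes were 6.45% of the 31, where 11.1% of all rows had groups that did not overlap, with the ethanol arrays higher in 5.06%.

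Mir300 and Mir381, neighbours in the cluster whose 3p seeds differ by a single base as shown above, both had lower means in ethanol. Mir300 had 4.19, 4.11 and 4.74 in ethanol arrays 1 to 3, against 4.89, 4.20 and 5.12 in saline arrays 1 to 3. Saline array 2 lay among the ethanol arrays, and the difference of -0.39 ± 0.27 (SE; adjusted p = 0.862 in limma) became -0.65 without saline array 2 and -0.20 without saline array 3. Mir381, reported like Mir329 to take part in dendrite growth, had 3.61, 4.04 and 4.09 in ethanol and 4.00, 4.37 and 4.39 in saline. Ethanol arrays 2 and 3 lay above saline array 1, so the groups overlapped, and ethanol array 1 was the lowest of the 6. The difference of -0.34 ± 0.16 (SE; adjusted p = 0.857 in limma) was -0.19 without ethanol array 1.

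Of the 4 genes inside Mirg, near the far end of the cluster, Mir154 and Mir541 had higher means in ethanol, and Mir377 and Mir409 had lower ones, with differences of -0.13 and -0.08. Mir154 had 4.43, 4.91 and 4.98 in ethanol arrays 1 to 3, against 4.62, 4.23 and 4.54 in saline arrays 1 to 3. Ethanol array 1 lay below saline arrays 1 and 3, and the difference was 0.31 ± 0.17 (SE; adjusted p = 0.857 in limma). It was 0.48 without ethanol array 1 and 0.19 without saline array 2. Mir541, reported in rat cells to act on synapsin I, had 4.94, 5.08 and 5.28 in ethanol and 4.87, 5.08 and 4.84 in saline, with overlapping groups and a difference of 0.17 ± 0.12 (SE; adjusted p = 0.859 in limma). Without ethanol array 3 that difference was 0.08.

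Signal differed widely between the rows. Row means ran between 2.56 and 9.07 with a median of 5.29, against 6.60 for all rows; 10 of the 31 lay above the median row and 5 (Mir376c, Mir376a, Mir379, Mir411 and Mir495) under the 10th percentile of rows. Probes bind with different strength, so these means do not rank the amounts of the microRNAs. The rows do not separate the mature strand from its hairpin or its long host transcript, and which of these gave the signal was not tested. The array was a whole-transcript array, and its values are not read here as amounts of mature strands.

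**Figure D2:**
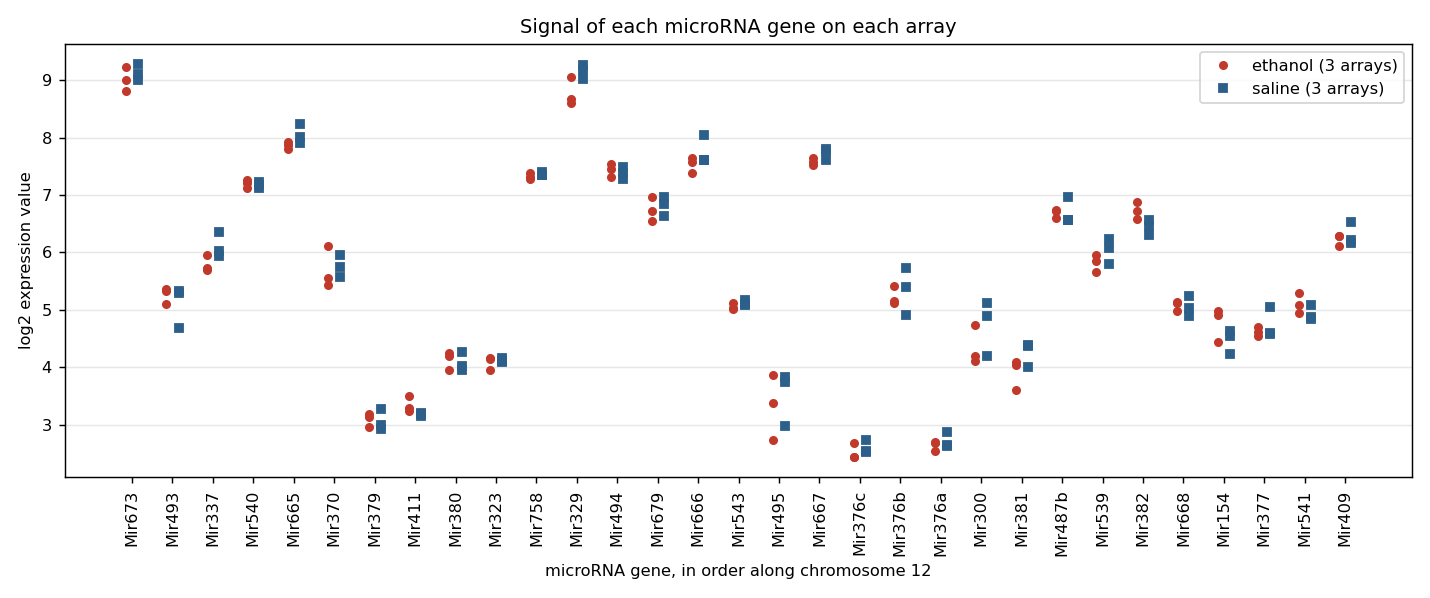
Log2 expression value (vertical axis) of each of the 31 microRNA genes on each array, in order along chromosome 12, with red circles for the 3 ethanol arrays and blue squares for the 3 saline arrays. Row means run from 2.56 to 9.07, and the circles and squares of a gene overlap except for Mir382 and Mir411.

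Apart from Mir329, the rows with the highest signal were Mir673, Mir665, Mir667 and Mir666. Mir673, the first of the 31 along the chromosome, had 9.23, 8.81 and 9.00 in ethanol and 9.29, 9.11 and 9.01 in saline (-0.12 ± 0.13, difference ± SE). Mir665, which lies in the part of the locus opposite Rtl1, had 7.92, 7.79 and 7.87 in ethanol and 7.90, 8.24 and 8.02 in saline (-0.19 ± 0.10). In both, the groups overlapped, with saline array 2 the highest for Mir665 and saline array 1 the highest for Mir673. Mir667 had 7.64, 7.53 and 7.57 in ethanol and 7.80, 7.76 and 7.61 in saline (-0.14 ± 0.08). Mir666 had 7.57, 7.39 and 7.65 in ethanol and 7.60, 7.61 and 8.05 in saline (-0.22 ± 0.14). All 4 of these genes had lower means in ethanol, with overlapping groups in Mir667 and Mir666 too. The Mir673 difference was -0.02 without ethanol array 2 and -0.23 without ethanol array 1. Without saline array 2 the Mir665 difference was smaller in size, and without saline array 3 the Mir666 difference was -0.07.

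Among the rows with the lowest signal, Mir376c had 2.44, 2.43 and 2.69 in ethanol and 2.52, 2.54 and 2.73 in saline (-0.08 ± 0.11). Mir376a, whose transcripts are known to be edited from adenosine to inosine in brain, had 2.53, 2.69 and 2.68 in ethanol and 2.62, 2.64 and 2.87 in saline (-0.08 ± 0.10). Mir379, the gene that opens the large part of the cluster, had 3.13, 3.18 and 2.95 in ethanol and 3.26, 2.92 and 3.00 in saline (0.03 ± 0.12). The groups overlapped in all 3.

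Across the 30 genes with a hairpin sequence in the RefSeq table, mean signal went with the GC content of the hairpin (Pearson r = 0.54, Spearman rho = 0.50, across genes, which are not independent replicates and which share the 6 arrays). The 10 hairpins lowest in GC, at 29.1% to 40.9%, had a median signal of 4.35, and the 10 highest, at 51.9% to 62.0%, a median of 6.11. Over 359 microRNA genes outside the locus the same correlation was 0.53. The difference between ethanol and saline did not go with GC content among the 30 genes (r = -0.00). Among the 10 hairpins lowest in GC, Mir494 had the highest signal, with 35.3% GC and a mean of 7.41, and Mir329 combined 42.3% GC with a mean of 8.96.

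**Figure D3:**
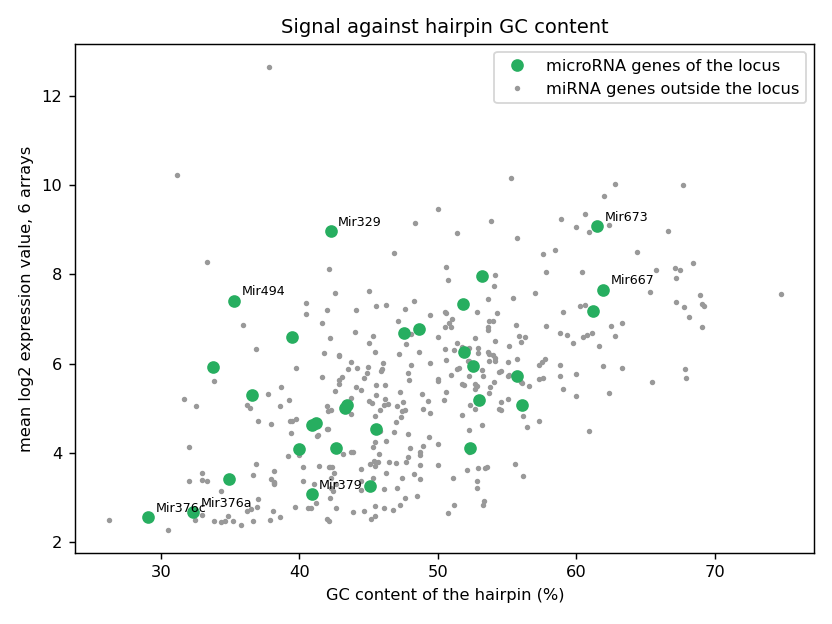
Mean log2 expression value over the 6 arrays (vertical axis) against the GC content of the hairpin in percent (horizontal axis), for 30 microRNA genes of the locus in green and 359 microRNA genes outside it in grey. Signal is higher for hairpins rich in GC in both sets (r = 0.54 and 0.53), and Mir376c and Mir376a lie at the low end of both axes.

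Neither group was the more variable, with the SD higher in ethanol for 16 of the 31 genes and higher in saline for 15. The median within-group SD was 0.16, against 0.13 over all rows. Mir495, reported to act on Bdnf, varied most, over a range of 1.13, with 3.37, 2.73 and 3.86 in ethanol arrays 1 to 3, against 3.74, 2.97 and 3.83 in saline arrays 1 to 3. Array 3 was the highest and array 2 the lowest of its group in both groups, as in Mir300. Mir376b had 5.12, 5.15 and 5.42 in ethanol and 5.39, 4.91 and 5.73 in saline, with array 3 the highest in both groups and array 2 the lowest in saline alone. Mir758 varied least, over a range of 0.12, around a mean of 7.34. Over all 465 pairs of the 31 genes the median Pearson correlation across the 6 arrays was 0.13, and over the 30 pairs of neighbours it was 0.03, as a description of 6 arrays that all genes share.

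**Figure D4:**
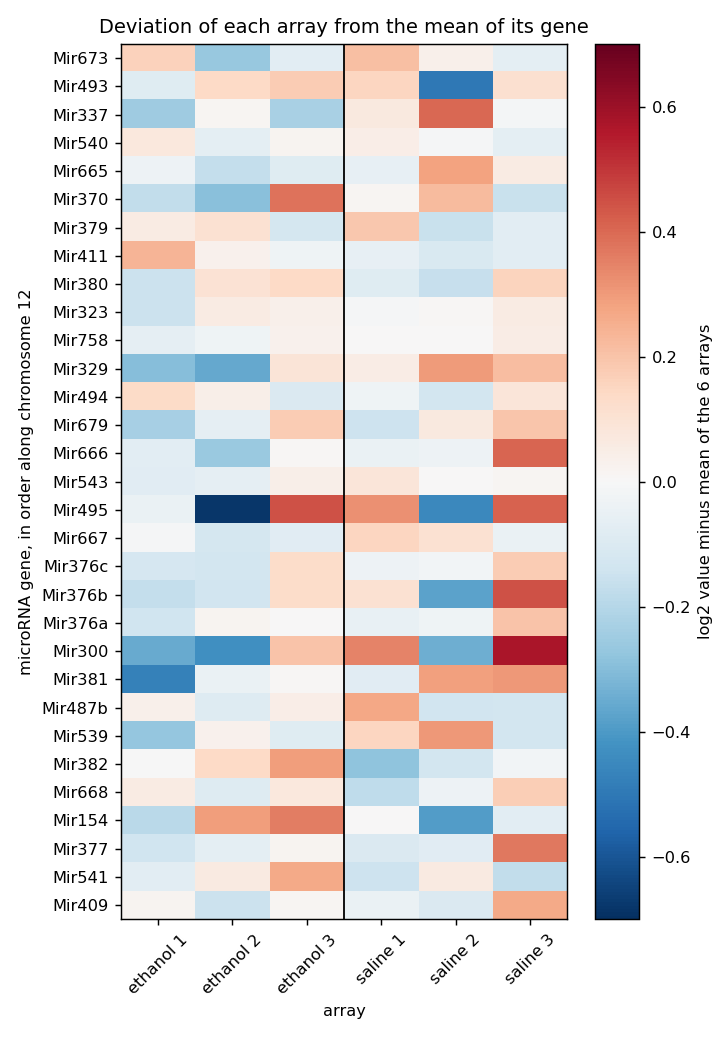
Deviation of each array from the mean of the 6 arrays (colour, log2), for the 31 microRNA genes down the page in order along chromosome 12, with ethanol arrays left of the black line and saline arrays right of it. Blue and red are mixed within each group, and the strongest colours are those of Mir495 and Mir300.

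More of the 31 genes were lower than higher in ethanol, and the same held for microRNA genes elsewhere, without regard to any test. Of the 31, 21 were lower and 10 higher in ethanol (67.7% lower), against 49.3% of all rows and 42.8% of all genes lower, and their median difference was -0.08, against 0.00 for all rows and 0.02 for all genes. Of 440 microRNA genes outside the locus 278 were lower (63.2%), with a median of -0.04. With arrays scaled by quantile normalization, by median centring or by cyclic loess the 31 genes had 19, 19 and 20 lower, with medians of -0.03, -0.04 and -0.04. Under median centring, which raised the median of all rows to 0.04, the microRNA genes outside the locus had a median of 0.00 and 49.5% lower, against 37.7% of all rows and 29.5% of all genes. Under that scaling 61.3% of the 31 genes were lower. All rows had 46.8% lower under quantile normalization and 49.6% under cyclic loess, where the 31 genes had 61.3% and 64.5%. The medians of the array deviations over the 31 genes were -0.08, -0.06 and 0.04 in ethanol arrays 1 to 3, against 0.00, -0.03 and 0.06 in saline arrays 1 to 3, so the groups overlapped, and without saline array 3 the median difference was -0.01. At an unadjusted p under 0.05 there were 44 of the 440 microRNA genes outside the locus (10%), against 5.54% of all rows and 3.18% of all genes. Of the 44, 33 were lower and 11 higher, and none passed the adjusted test.

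**Figure D5:**
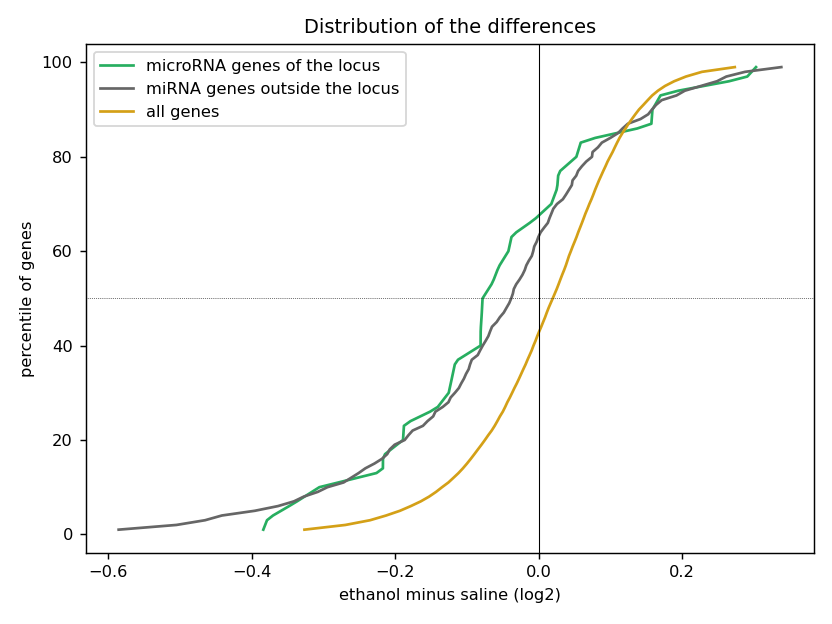
Percentile of genes (vertical axis) against the difference between ethanol and saline (log2, horizontal axis), for the 31 microRNA genes of the locus in green, 440 microRNA genes outside it in grey and all 22180 genes in yellow. The green and grey curves run close together, with medians of -0.08 and -0.04, and cross 0 at higher percentiles than the yellow curve.

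By position, the 5 genes before the start of Rian had a median difference of -0.12 (3 lower, 2 higher) and the 26 after it one of -0.07 (18 lower, 8 higher); the difference between these groups was not tested. In the first group Mir337, beside Mir540 and Mir665, was lowest, at 5.70, 5.96 and 5.72 in ethanol and 6.02, 6.35 and 5.94 in saline (-0.31 ± 0.13), with ethanol array 2 above saline array 3. The closest pairs of genes were Mir666 and Mir543, 74 bases apart, with differences of -0.22 and -0.06, then Mir540 and Mir665, 167 bases apart, at 0.02 and -0.19. In the third, Mir494 and Mir679, 174 bases apart, the values were 0.05 and -0.08. Mir376a, Mir380 and Mir409 each had a second row, and for Mir380 and Mir409 the rows differed in sign, at 0.06 and -0.00 for Mir380 and at -0.08 and 0.08 for Mir409.

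Of 12 other microRNA genes between Meg3 and Dio3, chosen after the values were seen, 9 were lower and 3 higher in ethanol, and 3 had an unadjusted p under 0.05, all lower, where 3.57% of all rows were lower at that p. Of the 440 microRNA genes outside the locus, 33 were lower at that p. In 5 of the 12 the groups did not overlap, 4 lower and 1 higher, against 11.1% of all rows and 12.3% of the microRNA genes outside the locus. Mir496a, the current symbol of Mir496, had 5.51, 5.38 and 5.65 in ethanol arrays 1 to 3, against 5.75, 6.01 and 5.95 in saline arrays 1 to 3. Every ethanol array lay below every saline array, by -0.39 ± 0.11 (difference ± SE; adjusted p = 0.857 in limma). Mir299a, the current symbol of Mir299, had 5.32, 5.43 and 5.49 in ethanol and 5.64, 6.22 and 6.34 in saline on the row with its higher mean (-0.66 ± 0.18; adjusted p = 0.857 in limma). Its other row differed by 0.04 ± 0.11, so its rows disagree. Mir544, the last of the 3, had 3.26, 3.33 and 3.43 in ethanol and 3.46, 3.72 and 3.54 in saline (-0.23 ± 0.10). Counting Mir496a and Mir299a with the 31 genes gave 4 of 33 at an unadjusted p under 0.05. All rows had 5.54%, all genes 3.18% and the microRNA genes outside the locus 10%. The 8 rows that name a listed gene together with other genes differed by -0.12 to 0.30. Of these 8, 2 were higher in ethanol, both at an unadjusted p under 0.05, where 1.97% of all rows were higher at that p. No gene is named from them.

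The long transcripts and the protein-coding genes of the locus differed little. Rian, a host transcript of small RNAs, had 8.90, 9.08 and 9.06 in ethanol and 8.98, 8.88 and 9.28 in saline (-0.03 ± 0.12), and the imprinted noncoding RNA Meg3 had 6.74, 6.59 and 6.83 in ethanol and 6.71, 6.88 and 6.85 in saline (-0.10 ± 0.09). Dlk1, a Notch-like ligand, had 7.22, 6.90 and 7.26 in ethanol and 7.17, 6.87 and 7.23 in saline (0.04 ± 0.14). Array 2 was the lowest of its group for Dlk1 in both groups. Dio3, the deiodinase that inactivates thyroid hormone, had 5.52, 5.16 and 5.17 in ethanol and 5.53, 5.18 and 5.23 in saline (-0.03 ± 0.14), and array 1 was the highest in both groups. Its antisense neighbour Dio3os differed by -0.11 ± 0.08 and Begain, upstream of Dlk1, by 0.07 ± 0.07, with ethanol values of 6.92, 6.82 and 6.95 against saline values of 6.95, 7.02 and 7.04 for Dio3os, and of 7.00, 6.97 and 6.99 against 6.98, 6.87 and 6.88 for Begain. All 6 had overlapping groups. Rtl1 and Mirg had no row of their own. Of 5 small nucleolar RNA genes annotated within the interval, 4 were lower, where 42.8% of all genes were lower. Their median was -0.15, and none had an unadjusted p under 0.05. In 1 of the 5 the groups did not overlap, with ethanol lower, where 10.5% of all genes had groups that did not overlap.

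Genes that make or use microRNAs were set beside the cluster. Of 18 measured out of 20, 13 were higher and 5 lower in ethanol (42.8% of all genes were lower), with a median of 0.05, and 0 had an unadjusted or adjusted p under 0.05 in limma. Ago3, an Argonaute protein that holds the mature strand, had 8.27, 8.43 and 8.33 in ethanol and 8.26, 8.18 and 8.13 in saline (0.16 ± 0.08). The nuclear export pair Xpo5 and Ran differed by 0.14 ± 0.07 and 0.12 ± 0.07, and for all 3 every ethanol array lay above every saline array. These were 3 of 18 genes (16.7%), where 10.5% of all genes had groups that did not overlap. Of 9 regulators of the locus, such as the imprinting factors Zfp57 and Trim28 and the activity-dependent Mef2 proteins, 7 were higher and 2 lower. Their median was 0.02, against 0.02 for all genes. The smallest p among them belonged to Mef2d (0.08 ± 0.09), Mef2a (0.06 ± 0.09) and Dnmt3b (-0.05 ± 0.08).

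Of 8 messenger RNAs known as targets of microRNAs of the cluster, 7 were measured. Among them 6 were higher and 1 was lower in ethanol, where 42.8% of all genes were lower. Their median was 0.07, against 0.02 for all genes, and 0 passed an unadjusted or adjusted p under 0.05 in limma. Pum2, a translational repressor of dendrites, had 9.34, 9.43 and 9.45 in ethanol and 9.21, 9.22 and 9.33 in saline (0.15 ± 0.08), with ethanol array 1 just above saline array 3. Bdnf, the neurotrophin, had 6.54, 6.43 and 6.43 in ethanol and 6.53, 6.56 and 6.79 in saline (-0.16 ± 0.10). Syn1, synapsin I, had 10.86, 10.82 and 10.80 in ethanol and 10.98, 10.53 and 10.51 in saline, where saline array 1 was the highest of all 6 (0.15 ± 0.13). In the pairs of microRNA and target named here, the differences had the same sign. They were 0.17 for Mir541 and 0.15 for Syn1, and -0.19 for Mir495 and -0.16 for Bdnf. Whether any of these messenger RNAs followed a microRNA was not tested, and several listed microRNA genes have no value of their own. Among 13 brain microRNA genes outside the locus, of which 1 is a host gene, 11 were lower and 2 higher, with a median of -0.07. Of all 440 microRNA genes outside the locus 63.2% were lower. Mir9-2, a neural progenitor microRNA gene, stood apart from most of these at 8.34, 8.50 and 8.42 in ethanol and 8.32, 7.92 and 8.11 in saline (0.30 ± 0.12; adjusted p = 0.857 in limma), and Mir9-1 and Mir9-3, which encode the same mature microRNA, differed by -0.04 ± 0.09 and -0.08 ± 0.10. Mir132, a microRNA induced by neuronal activity, differed by -0.24 ± 0.13 and Mir128-1 by -0.20 ± 0.11, both with overlapping groups.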

How the data were processed

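The deposited table held log2 expression values, 1 column per array, on an Affymetrix 2.0 whole-transcript array hybridized with labelled complementary DNA from 200 ng of total RNA, per the labels' protocols. The log2 scale was read from the values. Background correction, summarization and normalization are not given in the sources used here. The genome build was mm10, per the submitters' processing notes. Gene names came from the platform annotation, in which 23521 rows name 1 gene, 1814 several and 16010 none. Positions and sequences are those of RefSeq on GRCm38.

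All 41345 rows entered 1 fit in limma 3.58.1 under R 4.3.3, by lmFit and eBayes and with neither covariate nor filter (two-sided), with Benjamini-Hochberg adjustment over all rows and a threshold of 0.05. Differences are ethanol minus saline on the log2 scale, with standard errors from that fit. On simulated data with independent noise, only the calls and signs of known changes were checked, not the standard errors. Arrays were the replicates, and their number limits the precision; as each holds a pool of 3 mice, p-values measure the spread between pools. An exact permutation test of 3 arrays against 3 cannot go below 0.1. The microRNA genes, the lists, the tests and the alternatives were chosen with earlier results of these data known. Values of every array are given for genes with an unadjusted p under 0.05, the 3 largest differences in each direction, the 5 rows with the highest mean and the 3 with the lowest, and the genes of the locus; from each other list the 3 with the smallest p were taken. Mir337, Mir376b, Mir411, Mir494, Mir495, Mir758 and the microRNA and small nucleolar RNA genes of the interval outside the list were added after their values were seen, as were the marker genes named. Alternatives covered scaling, prior, filters, the row per gene, array weights, the replicate number as a block and leaving out arrays.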

Additional observations from a re-analysis of the deposited data

How the results depend on the processing

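The number of arrays limits these results. No gene of the cluster was called in any setting of limma, and all rows gave 0 calls except 1 without saline array 3 (0 to 1 leaving out single arrays). Of 31 genes, those with an unadjusted p under 0.05 numbered 2 on all arrays (5.54% of rows), 1 among rows above the median signal (10 genes, fewer by construction; 5.48% of rows), 4 when fitted with rows naming 1 gene (5.10% of rows), 4 with Mir299a and Mir496a added, 1 without both arrays numbered 2 (4.09% of rows; chosen after seeing the data, as was the addition), and 1 to 3 leaving out single arrays (3.88% to 9.30% of rows), with 1 each without ethanol array 2, ethanol array 3 or saline array 2. The gene was Mir337 without ethanol array 2, Mir329 without ethanol array 3 and Mir300 without saline array 2. With array weights the genes were Mir337 and Mir329. With the replicate number as a block there were 5 (5.69% of rows), namely Mir337, Mir329, Mir300, Mir381 and Mir382. Deviations of same-numbered arrays correlated at r = 0.10, -0.06 and 0.04, and those of differently numbered arrays at -0.13 to 0.10. So few arrays cannot show whether the numbers pair them, and the labels give no pairing. Genes whose groups did not overlap numbered 2, against 1 after quantile normalization, 1 after cyclic loess, 0 among rows above the median signal, 4 with the 2 added genes, 5 without both arrays numbered 2 and 3 to 9 leaving out single arrays, where smaller groups overlap less by construction. Genes higher in ethanol numbered 10, against 2 of the 10 rows above the median signal and 8 to 12 leaving out single arrays. The median difference lay between -0.11 and -0.013 leaving out single arrays, the last without saline array 3.

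Among 19 genes given with the value of every array, 14 kept their sign in every setting they entered. Dio3 was 0.024 after quantile normalization, 0.0092 after median centring, 0.015 after cyclic loess and 0.022 with array weights. Rian was 0.0094 after median centring, and Mir379 was -0.092 without both arrays numbered 2. Leaving out single arrays, Dio3 ranged from -0.15 to 0.078, Rian from -0.11 to 0.088, Dlk1 from -0.073 to 0.15, Mir379 from -0.045 to 0.13 and Mir376a from -0.12 to 0.0010. The cause of these changes was not tested.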
